A study of Mus musculus with 2 samples.

Results

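Genes of the innate receptor families were examined in Colon26 tumours of the mouse. They were Fc receptors, Toll-like receptors, C-type lectins, the Klr receptors found largely on natural killer (NK) cells, Siglecs and the Trem and Lilr receptors. The Ly6 family, the scavenger receptors Marco and Msr1, and the adaptor Tyrobp were also included. The genes were chosen by name from the current gene symbols and not by their values, though earlier results of these data were known. Of the 13506 genes with a value on both arrays, 58 belonged to these families. Each of these 58 genes was read by 1 probe. The families had 88 genes on the platform, of which 14 had a value on 1 array only and 16 on neither. The pattern of names also takes in genes that are not sensors of leukocytes, such as Fcgrt, the neonatal Fc receptor of several tissues, the secreted proteins Clec3a, Clec3b and Clec11a, and the Ly6 genes of epithelia and nerve tissue.

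Colon26 is a colon carcinoma line of the mouse that was grown in Balb/c mice after injection into the rectal submucosa. Liver metastases (Cy3) were set against primary tumours (Cy5) on 2 two-colour arrays, each with its own independently grown metastasis and tumour, so n = 2. The strain and the injected line were common to both tissues, and the labels give neither the age and sex of the mice nor whether animals were pooled. The labels name no step that separates Colon26 cells from host cells, so RNA of infiltrating leukocytes may be part of both tissues. Values are log ratios of the 2 channels, taken as log2. The sources used here do not state which channel is the numerator. Signs are therefore given as the positive and the negative side, and neither side is assigned to the metastasis or the primary tumour. The dyes had the same orientation on both arrays, so a probe's bias towards a dye cannot be told apart from a difference between the tissues. A ratio holds no level of either tissue, so the label of each tissue could not be checked against the level of its markers.

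Innate receptors let cells of the immune system respond to microbes, to damaged cells and to antibody before or without a specific lymphocyte response. Toll-like receptors bind microbial molecules at the cell surface or in endosomes and signal through the adaptors Myd88 and Ticam1 to NF-kB and interferon regulatory factors. Many Fc receptors, lectins and NK receptors signal instead through short tyrosine motifs, which are activating (ITAM, often on the partner chains Fcer1g and Tyrobp) or inhibitory (ITIM). In tumours these receptors are carried mainly by macrophages, neutrophils, dendritic cells and NK cells, and in the liver also by Kupffer cells and sinusoidal endothelium.

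The ratio departed from 0 in 4 of the 58 genes, all on the positive side. They were Tlr7, an endosomal receptor for single-stranded RNA, Clec1b, the platelet lectin CLEC-2, Ly6g6c, a small membrane-anchored protein of the Ly6 family, and Tlr6, the partner of Tlr2 for diacylated lipopeptides. Each gene's ratio was tested against 0 with limma and called at an adjusted p under 0.05, with adjustment over all 13506 genes. The called share was 6.9% among the receptor genes and 2.9% among all genes, of which 2.12% were called on the positive and 0.777% on the negative side. An unadjusted p under 0.05 was met by 15 receptor genes (25.9%) and by 27.5% of all genes. A distance of at least 1 unit from 0 on both arrays was met by 2 receptor genes, Tlr7 and Clec1b (3.45%), and by 2.27% of all genes. By this measure and by the unadjusted p, the families lay near the background of the whole table.

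**Figure D1:**
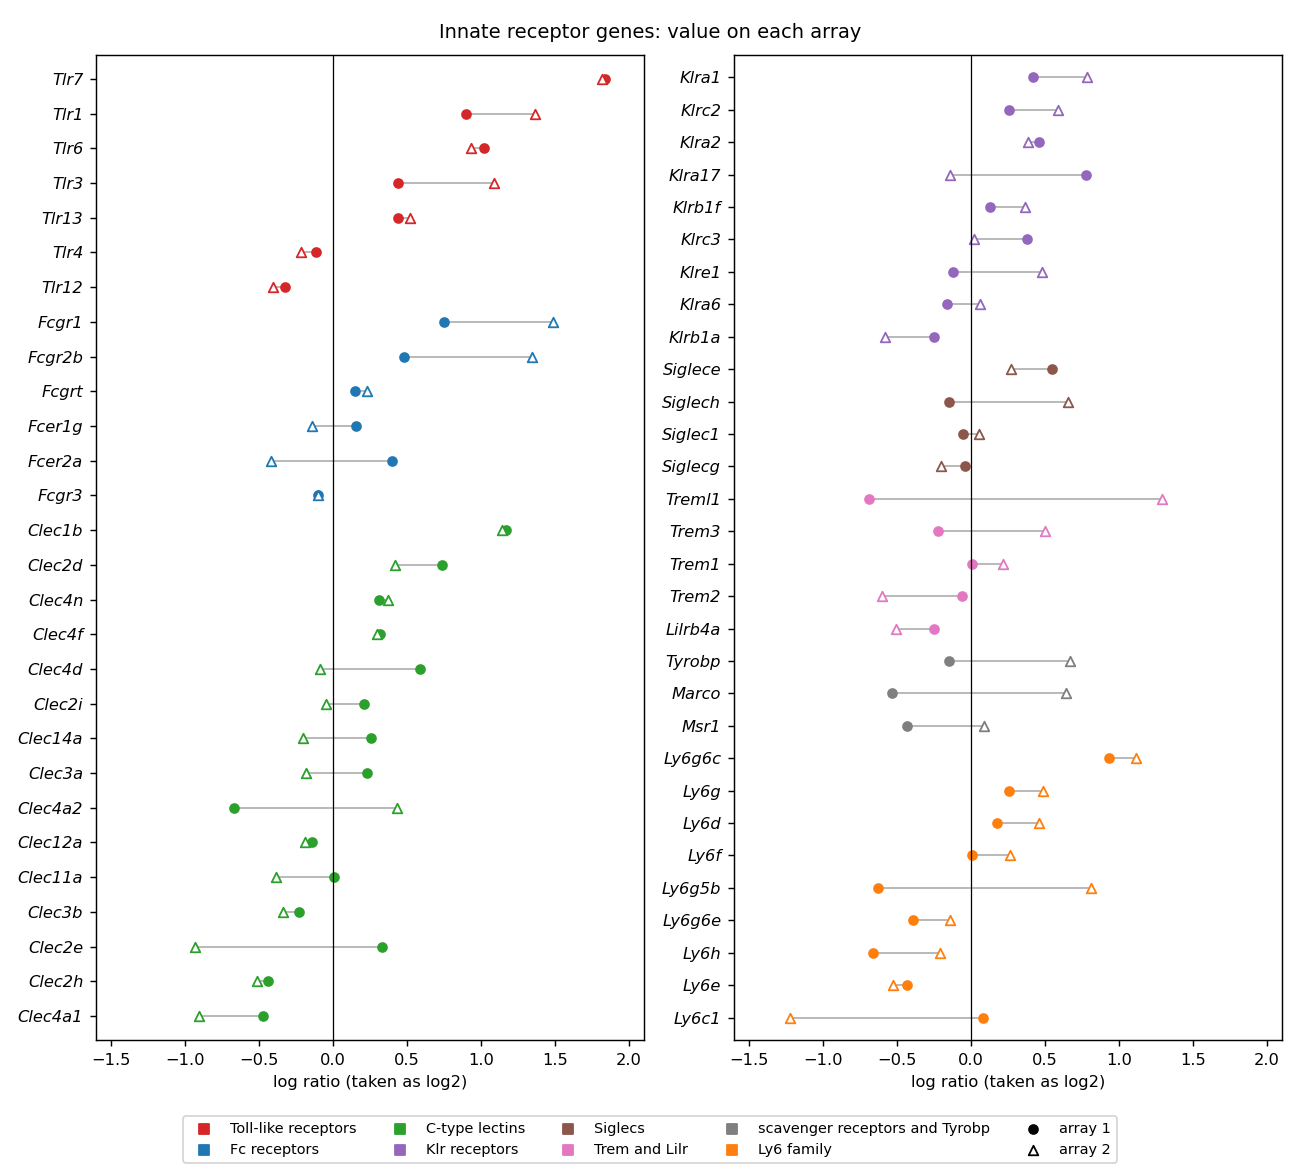
Log ratio (x axis, taken as log2) of each of the 58 innate receptor genes (rows, sorted by mean within a family), with filled circles for array 1 and open triangles for array 2. Tlr7, Clec1b, Ly6g6c and Tlr6 lie on the positive side on both arrays, whereas Treml1, Ly6g5b and Ly6c1 have the longest lines, which join the values of the 2 arrays.

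The promoter sequences of the called genes Clec1b, Ly6g6c and Tlr6 are shown, and none was found for Tlr7. That of Tlr1 is added, as Tlr1 lies next to Tlr6 in the RefSeq gene table and had a ratio near that of Tlr6. The sequences come from RefSeq on the mouse build GRCm38.p6. They run from 250 bases before to 50 bases after a gene's start, 5′ to 3′ on the gene's strand. Where a gene has several start sites, the window listed first is printed. The windows are chr6:129397047-129397346 on the plus strand for Clec1b, chr17:35067075-35067374 on the plus strand for Ly6g6c, chr5:64959117-64959416 on the minus strand for Tlr6 (1 of 2 windows) and chr5:64933509-64933808 on the minus strand for Tlr1 (1 of 2 windows). Capitals mark a match to one of 3 motifs.
Clec1b: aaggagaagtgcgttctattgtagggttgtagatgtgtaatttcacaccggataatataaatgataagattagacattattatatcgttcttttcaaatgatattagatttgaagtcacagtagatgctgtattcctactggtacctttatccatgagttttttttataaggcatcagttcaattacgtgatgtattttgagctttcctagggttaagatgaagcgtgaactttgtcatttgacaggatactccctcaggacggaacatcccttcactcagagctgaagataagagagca
Ly6g6c: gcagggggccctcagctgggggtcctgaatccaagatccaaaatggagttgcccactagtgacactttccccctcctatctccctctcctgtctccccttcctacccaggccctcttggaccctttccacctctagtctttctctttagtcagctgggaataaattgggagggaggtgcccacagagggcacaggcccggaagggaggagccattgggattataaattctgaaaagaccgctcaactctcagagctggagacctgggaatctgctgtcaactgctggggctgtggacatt
Tlr6: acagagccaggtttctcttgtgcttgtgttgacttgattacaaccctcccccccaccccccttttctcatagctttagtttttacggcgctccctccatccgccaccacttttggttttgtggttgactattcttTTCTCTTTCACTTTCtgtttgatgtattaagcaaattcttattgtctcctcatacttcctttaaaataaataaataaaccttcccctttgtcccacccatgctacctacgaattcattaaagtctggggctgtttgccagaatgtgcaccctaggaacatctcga
Tlr1: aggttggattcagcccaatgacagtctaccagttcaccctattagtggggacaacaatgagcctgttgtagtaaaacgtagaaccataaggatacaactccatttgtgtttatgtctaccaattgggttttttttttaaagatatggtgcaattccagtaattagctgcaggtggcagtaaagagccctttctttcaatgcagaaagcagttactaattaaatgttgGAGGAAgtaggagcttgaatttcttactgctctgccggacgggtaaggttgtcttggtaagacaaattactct

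The motifs searched on both strands were GAGGAA, the core bound by the myeloid factor PU.1, GAAANNGAA, the core of elements bound by interferon regulatory factors, and TGANTCA, the site of AP-1. The printed Tlr1 window holds GAGGAA at bases -23 to -18, counting the gene's first base as 0. The printed Tlr6 window holds GAAANNGAA at -115 to -107 and at -109 to -101, both on the opposite strand and overlapping each other. No match to one motif overlapped a match to another in these windows. The windows of Clec1b and Ly6g6c hold none of these letters. Windows were found for 44 of the 58 genes, 56 windows in all. GAGGAA occurred in 29 of these windows (51.8%) and in 28.3% of all 32851 windows of the table, TGANTCA in 11 (19.6%) and in 7.81% of all, and GAAANNGAA in 6 (10.7%) and in 8.56% of all. These are matches of letters, and binding was not measured.

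Among the Toll-like receptors, 5 of the 7 measured genes were positive on both arrays and 2 negative on both, and limma called 2. Over all genes 33.9% were positive on both, 38.2% negative on both, and 2.9% were called. Tlr7 had 1.84 on array 1 and 1.82 on array 2, a mean of 1.83 ± 0.01 (SD, n = 2), with a 95% limma interval of 1.45 to 2.21 and an adjusted p of 0.0282. If the base is 2, this is a 3.56-fold ratio. The 2 arrays almost coincided, and by the size of its mean the gene was the 72nd of the 13506.

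Tlr6 had 1.02 and 0.93, a mean of 0.98 ± 0.06 and was called by limma (adjusted p = 0.0484). Tlr1, which pairs with Tlr2 to bind triacylated lipopeptides, had 0.90 and 1.37, a mean of 1.13 ± 0.33 (SD, n = 2). Its mean was larger than that of Tlr6, but its arrays lay farther apart and it missed the threshold (limma adjusted p = 0.0507). Tlr1 and Tlr6 are close relatives by sequence as well as neighbours, and a probe may read both. Tlr2, the partner they share, had a value on array 1 only, -0.56, on the side opposite to Tlr1 and Tlr6.

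Among the receptors of the endosome, Tlr3, which binds double-stranded RNA, had 0.44 and 1.09, and Tlr13, a receptor of bacterial ribosomal RNA in the mouse, had 0.44 and 0.52. Neither passed over all genes, with adjusted p of 0.108 and 0.133 in limma's test. Tlr12, a mouse receptor for profilin of protozoa, lay on the other side at -0.32 and -0.41, and Tlr11, with the same ligand, had 0.38 on array 1 only. The nucleic acid sensors of the endosome that had a value on both arrays were thus all positive on both, but only Tlr7 was called. The lipopeptide receptors Tlr1 and Tlr6 were likewise positive on both arrays, so this sign was not particular to the nucleic acid sensors. Tlr4, the receptor of bacterial lipopolysaccharide, had -0.11 and -0.21, with an interval of -0.55 to 0.23. Tlr8, the neighbour of Tlr7 in the gene table, had a value on neither array.

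The median of the Toll-like receptors was 0.77, with 0.44 on array 1 and 0.93 on array 2, against -0.02 for all genes. The values of the other genes of the pathway ran differently. Of 27 measured adaptors, kinases, transcription factors and inhibitors downstream of these receptors, 19 were negative on both arrays (70.4%) and 2 positive on both. All genes had 38.2% negative and 33.9% positive on both. The 19 included inhibitors of the pathway, among them Nfkbia at -0.28 and -0.18 and Nfkbib at -0.18 and -0.33. Tnfaip3, at -0.14 and -0.67, and Irak3, at -0.34 and -0.05, were further ones. The median of these 27 was -0.23, and none passed limma's adjusted threshold (0 of 27). In limma's fit 6 reached an unadjusted p under 0.05, as did 27.5% of all genes. Farthest from 0 on their weaker array, 2 on each side, were Nfkb2, a subunit of NF-kB, at -0.87 and -0.63, Tollip, an inhibitor of receptor signalling, at -0.55 and -0.66, Tab3, an adaptor of the kinase Map3k7, at 0.51 and 0.63, and Ikbkg, the regulatory subunit of the IkB kinase, at 0.40 and 0.63. The shared adaptor Myd88 had -0.24 and 0.04, and Ticam1, the adaptor of Tlr3, had -0.37 and -0.12.

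The molecules that help Toll-like receptors to bind ligand or to fold did not lie on a common side, with 5 of 9 positive on both arrays and 4 negative on both. Cd14, which hands lipopeptides and lipopolysaccharide to Toll-like receptors, had -1.43 and -0.96, a mean of -1.20 ± 0.33 (SD, n = 2), and was the 1 called gene of the list (limma adjusted p = 0.0475). This call was lost in 7 of the 8 alternative settings, centring on the median among them. Ly96, the MD-2 subunit of the Tlr4 complex, had 0.85 and 1.23 and missed the threshold at an adjusted p of 0.0532. Ly86, the partner of Cd180, had 0.54 and 0.32, whereas Cd180 itself had -0.40 and -0.48. S100a8, a protein of neutrophils that acts on Tlr4, had -0.69 and -1.06. Unc93b1, which carries Tlr7 and other nucleic acid sensors to the endosome, had 0.03 and 0.20, close to 0 where Tlr7 was not. Tlr4 and its subunit Ly96, and Cd180 and its partner Ly86, thus had opposite signs on both arrays, and the difference within each pair was not tested.

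**Figure D2:**
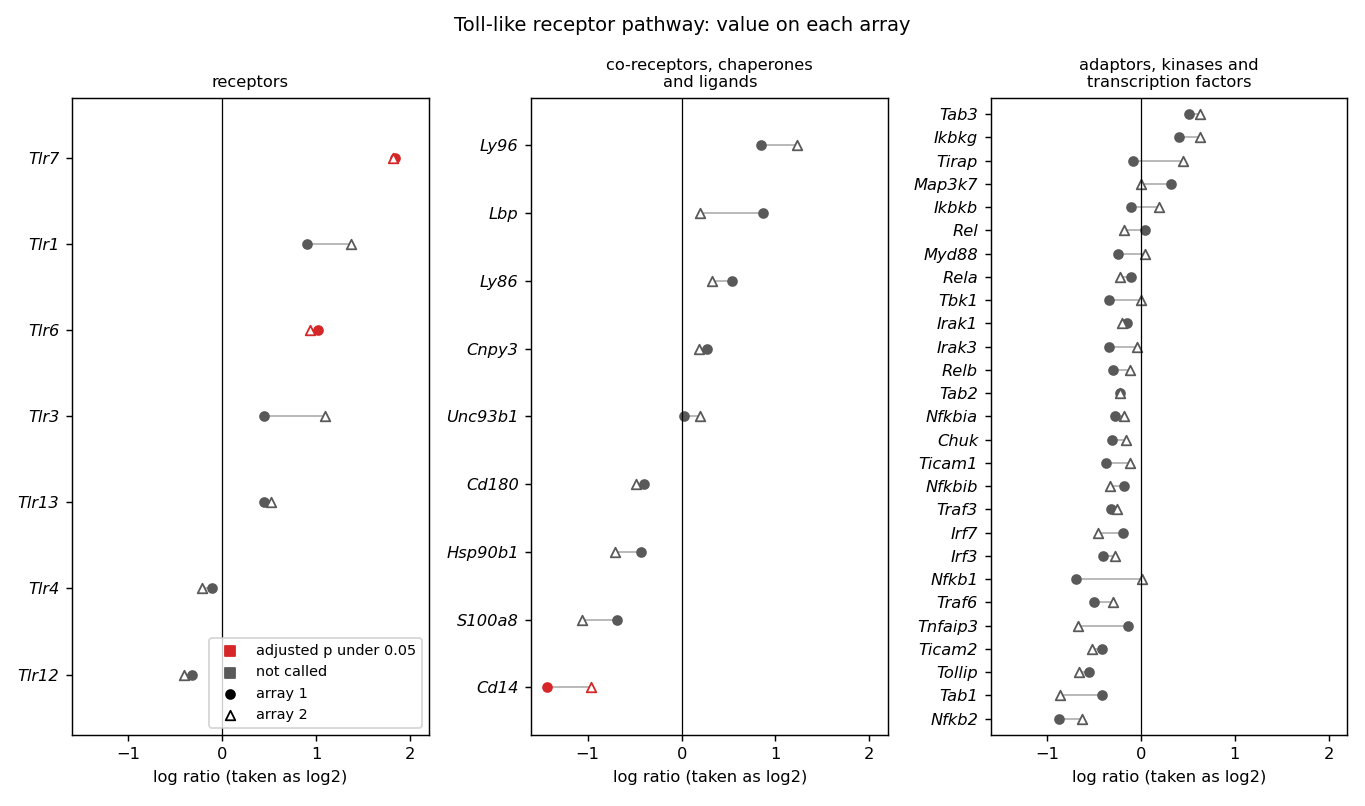
Log ratio (x axis, taken as log2) on array 1 (filled circles) and array 2 (open triangles) for the Toll-like receptors (left), their co-receptors, chaperones and ligands (middle) and the adaptors, kinases, transcription factors and inhibitors downstream (right), with called genes in red. Of the receptors 5 of 7 are positive on both arrays, and of the downstream genes 19 of 27 are negative on both.

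Among the Fc receptors, 3 of 6 genes were positive on both arrays and 1 negative on both. No call was made by limma (0 of 6), and 2 genes reached an unadjusted p under 0.05, as did 27.5% of all genes. Those 2 were Fcgr1, the high-affinity receptor for IgG, with 0.75 on array 1 and 1.48 on array 2, and Fcgr2b, the inhibitory IgG receptor, with 0.48 and 1.35. Both were higher on array 2 by a wide margin, by 0.73 and 0.87, which gave adjusted p of 0.0686 and 0.106 in limma's test. Fcgr3, an activating receptor of low affinity that competes with Fcgr2b for IgG, had -0.10 on each array, and its interval ran from -0.48 to 0.29. The activating and the inhibitory receptor of highest ratio thus lay on the same side, and Fcgr3 lay close to 0. Fcgrt, which protects IgG from breakdown, had 0.15 and 0.23. Fcer1g, the signalling chain of Fcgr1 and Fcgr3, had 0.16 and -0.14, and Fcer2a, the low-affinity IgE receptor of B cells, had 0.40 and -0.42. Fcer1a, the IgE receptor chain of mast cells, and Fcgr4 had a value on neither array.

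Of 15 C-type lectins, 4 lay on the positive side of both arrays, 4 on the negative side, and 7 differed in sign. Their median of 0.02 went with 0.23 for array 1 and -0.18 for array 2, so its sign differed between the arrays. Clec1b, which activates platelets through a single tyrosine motif, was the 1 called gene. It had 1.17 and 1.14, a mean of 1.16 ± 0.02 (SD, n = 2), an interval of 0.77 to 1.54 and an adjusted p of 0.0422, which for base 2 means 2.23-fold. Of 9 platelet markers, 5 were measured on both arrays, 1 was positive on both and 2 negative on both. Among them Gp5 had 0.29 and 0.45, Ppbp -0.26 and -0.49, and Gp1bb -0.48 and -0.38, while Gp9, at 0.44 and -0.51, and Itgb3, at 0.14 and -0.41, changed sign. The part of platelets in the value of Clec1b was not tested. Clec1a, the neighbouring lectin of endothelium, had -1.50 on array 2 only.

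Clec2d, a ligand of the NK receptor Klrb1b, had 0.74 and 0.42 and did not pass over all genes (limma adjusted p = 0.117). Its relatives of the same gene cluster differed: Clec2h had -0.44 and -0.51, Clec2i 0.21 and -0.04, and Clec2e 0.33 and -0.93. The myeloid lectins also divided. Clec4n, the dectin-2 receptor of fungal mannans, had 0.31 and 0.37, and Clec4f, a lectin of Kupffer cells, had 0.32 and 0.30. Clec4a1, a relative of the inhibitory lectin DCIR, was the lowest of the 58 genes by its mean, with -0.47 and -0.90 and a mean of -0.69 ± 0.31 (SD, n = 2; limma adjusted p = 0.102). Clec12a, an inhibitory receptor for uric acid crystals, had -0.14 and -0.19. Clec4a2 (DCIR), at -0.67 and 0.43, and Clec4d, at 0.59 and -0.09, changed sign between the arrays, as did Clec14a of endothelium at 0.26 and -0.20. Of the secreted proteins with this fold, Clec3b, tetranectin, had -0.23 and -0.34, Clec3a 0.23 and -0.18, and Clec11a, a growth factor of the bone marrow, 0.01 and -0.38.

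Among the Klr receptors, not all of which belong to NK cells, 5 of 9 genes were positive on both arrays. Of the others 1 was negative on both, and the family median was 0.25. Limma called 0 of them, and 2 had an unadjusted p under 0.05. Klra1 (Ly49A), an inhibitory receptor for MHC class I, had 0.42 and 0.79, and its relative Klra2 (Ly49B) had 0.46 and 0.38. Their adjusted p were 0.115 and 0.161. Klrc2, an activating receptor chain for Qa-1, had 0.26 and 0.59, and Klrb1f, a stimulatory receptor for a Clec2 ligand, had 0.13 and 0.36. Klrb1a stood opposite at -0.25 and -0.58. Klrc3 had 0.38 and 0.02, and Klre1 and Klra6 changed sign between the arrays, at -0.12 and 0.48 and at -0.16 and 0.06. Klra17 (Ly49Q), which is found on plasmacytoid dendritic cells and other myeloid cells, had 0.78 and -0.14. The probes of Klra, Klrc and Clec2 genes may read near-identical copies, and the gene content of the Klra cluster differs between mouse strains, so these values may not belong to 1 gene each. Klrd1 and Klrk1, which code for CD94 and NKG2D, had a value on neither array, and Klrg1 had 0.88 on array 1 only.

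Of 6 markers of NK cells themselves 4 were measured. The ratio was negative throughout in 3, positive throughout in 0 and of changing sign in 1. Ncr1, the receptor NKp46 that marks NK cells, had -0.18 and 0.60, Eomes -0.48 and -0.56, Gzmb, granzyme B, -0.12 and -0.05, and Prf1, perforin, -0.02 on each array. Of 19 ligands of NK receptors 7 were measured, and 0 of them passed limma's adjusted threshold. An unadjusted p under 0.05 was reached by 3 of the 7, and by 27.5% of all genes. Raet1e, a ligand of NKG2D, had -0.53 and -0.83, Cdh4, a ligand of Klrg1, -0.25 and -0.69, and Pvr, a ligand of the NK receptor CD226, 0.44 and 0.50.

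Siglecs bind sialic acid on other cells. Of 4 measured, 1 was positive and 1 negative on both arrays. Siglece, an inhibitory receptor of neutrophils and macrophages, had 0.55 and 0.27 (limma adjusted p = 0.185), and Siglecg, its counterpart on B cells, had -0.04 and -0.20. Siglec1, the sialoadhesin of tissue macrophages, had -0.05 and 0.05, an interval of -0.39 to 0.39 and thus no detectable difference. Siglech of plasmacytoid dendritic cells had -0.15 and 0.66, and Siglecf, the marker of eosinophils, had 1.31 on array 2 only.

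Of 5 Trem and Lilr receptors, 1 was positive and 2 were negative throughout. In limma's fit 0 of the 5 reached even an unadjusted p under 0.05. Treml1, which sits on platelets, had -0.69 on array 1 and 1.29 on array 2, the widest gap of the 58 genes at 1.98. Trem3 had -0.22 and 0.50. Trem1, which amplifies inflammation in neutrophils, had 0.01 and 0.22, and Trem2, a lipid receptor of macrophages, had -0.06 and -0.60. Lilrb4a, an inhibitory receptor of myeloid cells, had -0.25 and -0.51, which limma did not call (adjusted p = 0.205). Tyrobp (DAP12), the signalling chain that Trem1, Trem2, Trem3 and Siglech share, had -0.15 and 0.67. The scavenger receptors Marco, at -0.53 and 0.64, and Msr1, at -0.43 and 0.09, likewise changed sign, and all 3 genes of this group were lower on array 1 than on array 2.

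Many proteins of the Ly6 family are anchored to the membrane by a lipid, and the family includes markers of neutrophils and monocytes. Of its genes, 4 of 9 had positive values on each array and 3 had negative ones. Ly6g6c was called, with 0.93 and 1.12, a mean of 1.02 ± 0.13 (SD, n = 2), an interval of 0.62 to 1.42 and an adjusted p of 0.0475. Genes with related names differed among themselves. Ly6g6e had -0.39 and -0.14, Ly6g5b -0.63 and 0.81, and Ly6g5c had 2.22 on array 1 only, the side of Ly6g6c. Ly6g, the marker of neutrophils, had 0.26 and 0.49, and Ly6d, a protein of keratinocytes and early B cells, 0.18 and 0.46. The remaining positive gene, Ly6f, had 0.01 and 0.27. Ly6c1, a marker of monocytes and endothelium, had 0.08 and -1.22, and its probe may also read its near-identical copy Ly6c2. Ly6e, a protein that restricts viruses and is induced by interferon, had -0.43 and -0.52, and Ly6h, a protein of neurons, -0.66 and -0.21. Neither passed, with adjusted p of 0.135 and 0.198 in limma's test. Of the related genes outside the name pattern, 7 were measured, and Slurp1, a secreted relative made by epithelia, was called at -1.05 and -1.23 (limma adjusted p = 0.0438).

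**Figure D3:**
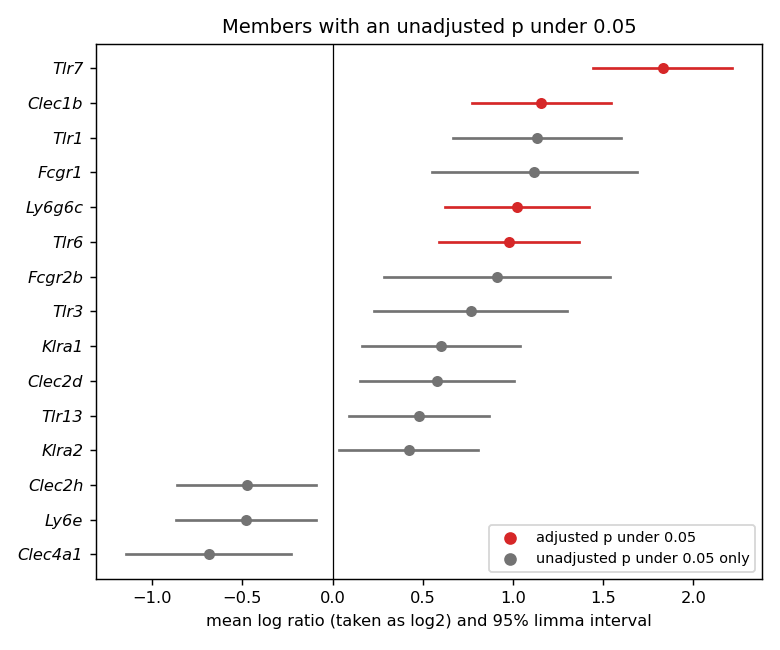
Mean log ratio (x axis, taken as log2; points) and 95% limma interval (lines) of the 15 innate receptor genes with an unadjusted p under 0.05, with called genes in red. Of these 15, 12 are positive and 3 negative, and the interval of Tlr7, 1.45 to 2.21, lies farthest from 0.

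Taken across families, 23 of the 58 genes were positive on both arrays (39.7%, against 33.9% of all genes), 14 were negative on both (24.1%, against 38.2%) and 21 had mixed signs. Their median ratio was 0.13 (0.11 for array 1, 0.22 for array 2), against -0.02 for all genes. Without the 4 called genes it was 0.09. The arrays shared the sign in 63.8% of the receptor genes and in 72.2% of all genes, and the median gap between the arrays was 0.31 for the receptor genes and 0.25 for all genes. Across the 58 genes, which are not independent replicates, Pearson's r between the arrays was 0.47 and Spearman's rho 0.39, against 0.61 and 0.58 across all genes. By family, Pearson's r was 0.93 over 7 Toll-like receptors, 0.72 over 6 Fc receptors and 0.54 over 15 C-type lectins. It was 0.39 over 9 Ly6 genes and 0.23 over 9 Klr receptors.

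**Figure D4:**
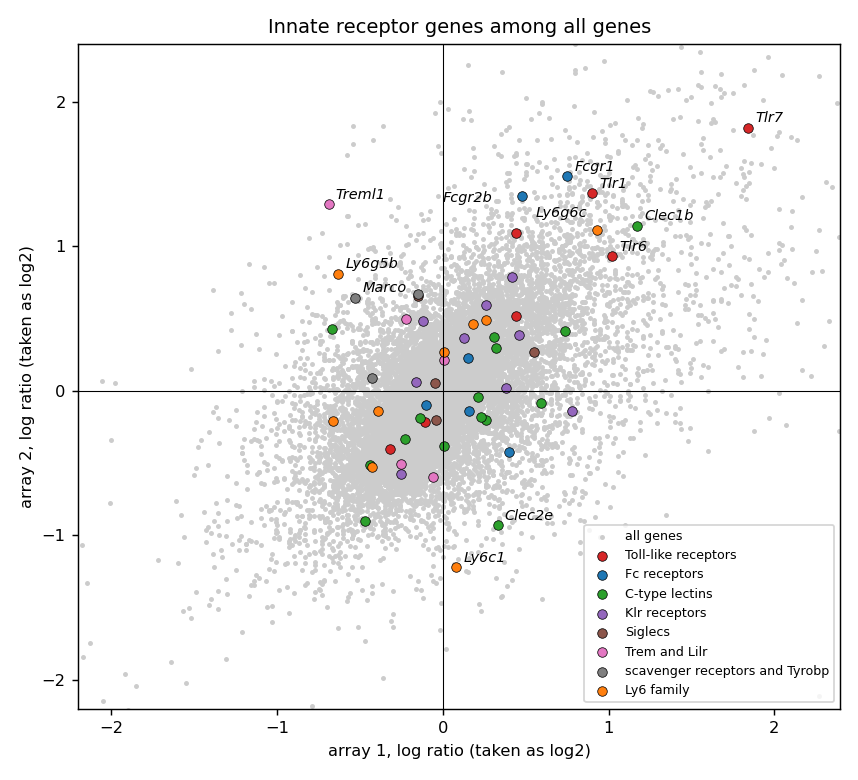
Log ratio on array 1 (x axis) against array 2 (y axis), both taken as log2, for all 13506 genes (grey) and the 58 innate receptor genes (colours by family). Genes beyond the limits of the axes are not drawn. Tlr7 lies at 1.84 and 1.82, while Treml1, Ly6g5b and Marco lie in the quadrant of negative values on array 1 and positive values on array 2.

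Both signs occurred among the receptors grouped as activating and among those grouped as inhibitory. Of 11 receptors grouped as activating, 6 were positive and 2 negative on both arrays, with a median of 0.25. Of 11 grouped as inhibitory, 4 were positive and 3 negative on both arrays, with a median of 0.30. That median of the inhibitory receptors is the mean of Treml1, whose values differed in sign at -0.69 and 1.29. The median of the activating receptors was 0.13 on array 1 and 0.37 on array 2, and that of the inhibitory ones -0.04 on array 1 and 0.27 on array 2, so the side of the inhibitory receptors differed between the arrays. This grouping was made with the values known, and the place of Treml1 among the inhibitory receptors is uncertain. Of 24 measured genes that carry the signal of tyrosine motifs, 13 had positive and 6 had negative ratios throughout. Of these limma called 2, both positive, where 2.9% of all genes were called. Sh2d1b1 (EAT-2), an adaptor of SLAM receptors in NK cells, had 1.21 and 1.85, with an adjusted p of 0.0438. Pik3r1, the regulatory subunit of phosphoinositide 3-kinase and present in nearly all cells, had 1.05 and 1.26, with an adjusted p of 0.0438. Card9, which links dectin receptors to NF-kB, had -0.33 and -0.78, and Fyn, a Src kinase, -0.41 and -0.38.

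Receptors of related function outside these families had too few calls to compare their share with that of all genes (2.9%). Of 14 measured genes of other innate sensing, mainly cytosolic sensors and their adaptors, limma called 0. An unadjusted p under 0.05 was met by 5 of the 14, and by 27.5% of all genes. These 5 included Cgas, the sensor of cytosolic DNA, at 1.00 and 0.67, and Nod1 at 0.39 and 1.21. Nlrx1 at -0.43 and -0.66 and Zbp1 at -0.43 and -0.53 were also among the 5. Of 20 other scavenger receptors and lectins 1 was called, Sele (E-selectin of activated endothelium), at 1.00 and 0.90 with an adjusted p of 0.0499. Selp (P-selectin) had 0.72 and 0.60, Scara3 -0.50 and -0.76, and Scarb1, a lipoprotein receptor, -0.45 and -0.50.

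Markers of the cells that carry these receptors were read on the same arrays. Of 7 macrophage markers 4 were measured, 1 positive and 3 negative on both arrays. Cd163 had 0.39 and 0.93, against Cd14 at -1.43 and -0.96, Csf1r at -0.19 and -0.27 and Cd68 at -0.21 and -0.19. Of 6 neutrophil markers 3 were measured, with Mpo at 1.19 and 0.75 and Mmp9 at 0.51 and 1.65 against S100a8 on the negative side. Of 3 measured dendritic cell markers 2 were positive on both arrays, Itgax at 1.21 and 0.65 and Flt3 at 0.40 and 0.40. Zbtb46, at 0.14 and -0.72, changed sign. Plasmacytoid dendritic cells had 0 positive and 3 negative on both arrays among 5 measured markers. The negative ones were Bst2 at -0.83 and -0.64, Spib at -0.77 and -0.33 and Runx2 at -0.03 and -0.39. Siglech, at -0.15 and 0.66, and Ccr9, at 0.08 and -0.61, changed sign. Of the markers of T cells (6 measured), 2 were positive and 1 negative on both arrays, with Cd2 at 0.82 and 1.16, Cd5 at 0.68 and 1.26 and Cd4 at -0.29 and -0.02. The T cell receptor chains Cd3e, at 0.61 and -0.27, and Cd3d, at 0.40 and -0.06, changed sign, as did Cd8a at 0.05 and -0.14. B cell markers (4 measured) had 2 on each side, Cd79b at 1.27 and 0.56 and Ms4a1 at 0.56 and 0.46, against Ighm at -0.24 and -0.59 and Cd79a at -0.24 and -0.34. The 3 measured mast cell markers had mixed signs, as did 1 of 2 Kupffer cell markers and 1 of 2 markers of liver sinusoidal endothelium. Hepatocyte markers divided, with 2 of 5 positive and 3 negative on both arrays. Ttr, transthyretin, had 0.84 and 0.76, and Trf, transferrin, 0.99 and 0.37. Fah, an enzyme of tyrosine breakdown, had -1.30 and -0.59, Apoc3, an apolipoprotein, -0.56 and -0.47, and Alb, albumin, -0.03 and -0.64. Of the 46 marker genes measured in all, limma called 1, Cd14, where 2.9% of all genes were called. An unadjusted p under 0.05 was met by 19 of the 46, and by 27.5% of all genes. The lists for platelets and plasmacytoid dendritic cells were added after the receptor values had been seen. The part of any cell type in the receptor values was not tested, and in bulk tissue fewer cells of a type and less RNA per cell cannot be told apart.

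The adjusted p of Clec1b, Tlr6 and Ly6g6c lay close to the threshold. Over 8 alternative settings that could change a call, Tlr7 stayed called in 6 and lost the call after quantile normalization and without moderation of the spread. Clec1b stayed called in 3, and Tlr6 and Ly6g6c in 2 each. With genes that had a value on at least 1 array, 7 receptor genes were called, among them Tlr1 at an adjusted p of 0.0406 and Ly6g5c and Clec1a, each of which rests on 1 array and an assumed spread. Outside the families, Slurp1, Sh2d1b1 and Pik3r1 stayed called in 3 of the 8 settings each and Sele in 1.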

How the data were processed

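The authors deposited 1 log ratio per probe for each of 2 two-colour arrays, a value table with no intensities, so the number of arrays limits the precision. The deposited values were taken as log2, which is an assumption. Neither the log base, the numerator channel, the background correction nor the normalization is given in the sources used here. Array 1 is rounded to hundredths. The values were used as deposited, with array medians near 0. Both arrays gave a value for 18837 of 23473 probes. Probes were named through the platform annotation and current RefSeq symbols, and probes of a gene were averaged, which gave 13506 genes. A single gene may be read through a near-identical copy.

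Departure of a gene's mean ratio from 0 was judged by limma 3.58.1, run in R 4.3.3 (intercept model in lmFit, eBayes, Benjamini-Hochberg adjustment over all 13506 genes, threshold 0.05), with 1 residual degree of freedom and a prior of 4.06. The fit was tested on simulated data. Tables were handled with Python 3.11.15 and pandas 2.3.3.

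Named receptor genes are the called ones and, in each family, up to 4 per side whose smaller value of the 2 arrays lay farthest from 0, and in other lists the called ones and up to 2 per side. Genes outside this rule (chiefly those with mixed signs, the markers, and genes with a value on 1 array) were named after their values were seen. The receptor genes and the lists were chosen with earlier results of these data known. Alternatives were centring, scaling, quantile normalization, a fit on probes, genes with a value on at least 1 array, no moderation, robust moderation, a minimum fold of 1.2, natural logs and leaving out each array. The metastases and tumours are described as independently grown. The p-values rest on the spread between these 2 pairs, moderated by a prior taken from all genes.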

Additional observations from a re-analysis of the deposited data

How the results depend on the processing

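The count of called receptor genes, 4, depended on the processing. It was 4 after centring on the median, and 4 with natural logs, which cannot change a p-value, 7 with genes that had a value on at least 1 array, 2 with robust moderation, and 1 after scaling to equal spread, with the fit on probes and with a minimum fold of 1.2. It was 0 after quantile normalization, where limma called 4 of all genes and 16 receptor genes had an unadjusted p under 0.05, and 0 without moderation, where 0 of all genes were called and 6 receptor genes had an unadjusted p under 0.05. The cause of these shifts was not tested. Adjusted p over the other 8 alternatives ran from 0.0291 to 0.462 for Tlr7, 0.0377 to 0.462 for Clec1b, 0.039 to 0.463 for Ly6g6c and 0.039 to 0.463 for Tlr6. Of 31 named receptor genes not called, 30 were called in none of these alternatives, the exception being Tlr1.

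The count of receptor genes at least 1 unit from 0 on both arrays, 2, became 6 if the values are natural logs, since they then grow on conversion, and 3 to 9 with either array left out, when only 1 array has to pass. The median of 0.13 became 0.11 to 0.22 with either array left out, the upper value without array 1.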

Other observations

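Of the receptor genes with a value on 1 array, 9 were measured on array 2 and 5 on array 1. On array 2, Klri2, an NK receptor, had 1.40, Clec4b1, a lectin of dendritic cells, 1.07, Treml4 0.86, Klrb1b, the receptor of Clec2d, 0.83, Clec2f 0.10, Ly6i -0.11 and Klra5 -0.73. On array 1, Lilra6 had 0.64. These values have no replicate.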
